A study of Mus musculus with 20 samples.

Results

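The Usp17-like deubiquitinases of the mouse form a small gene family of 5 annotated protein-coding members, *Usp17la*, *Usp17lb*, *Usp17lc*, *Usp17ld* and *Usp17le*, which were taken by gene symbol. All 5 were present among the 20159 genes with read counts in mouse embryonic stem cells (mESCs), among the 20142 genes with read counts in embryoid bodies (EBs), and in the tables of RPKM, read counts scaled by transcript length and library size, of lines and embryos. None was among the 22729 genes with read counts in embryos, a table with no gene under 13 counts in total. The study removed *Zmym2*, which encodes a zinc finger corepressor, from mESCs and from mice, and asked which transcripts change without it. RNA was sequenced from 2 *Zmym2*-/- (KO) and 2 *Zmym2*+/+ non-target (NT) V6.5 lines, a C57BL/6 × 129/Sv background, each as mESCs in serum and LIF at day 0 and as EBs at day 3. It was also sequenced from 6 KO and 6 WT single whole C57BL/6 embryos at E8.5, with 3 males and 3 females per genotype. Each line was 1 clone grown from a picked colony after nucleofection of Cas9. The guide RNA targeted *Zmym2* in KO lines and was non-targeting in NT lines. Each p-value between KO and NT lines thus rests on the spread between 2 clones per genotype. Those between stages come from the same clones, sequenced at both stages. KO embryos carried a frameshift in the first coding exon of *Zmym2*.

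USP17-type enzymes are cysteine proteases of the ubiquitin-specific protease (USP) family, which remove ubiquitin from target proteins and so can spare them from degradation or alter their signalling. The mouse founders of the family, DUB-1 and DUB-2, were described as immediate early genes induced by cytokines in haematopoietic cells, and human USP17 has been linked to cell cycle entry, migration and innate immune signalling. The genes have few introns and lie in tandem arrays that expand and shrink between species, a feature shared with other multigene families that are switched on in the 2-cell mouse embryo and in the rare 2-cell-like cells of mESC cultures. RefSeq lists *Dub1* as a synonym of *Usp17la*, *Dub1a* of *Usp17lb*, *Dub2* of *Usp17lc*, *Dub2a* of *Usp17ld* and *Dub3* of *Usp17le*.

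All members were annotated on chromosome 7 of GRCm38, the build of the deposited files, among olfactory receptor genes. *Usp17ld* spanned chr7:103249737-103252505 on the minus strand and *Usp17lc* chr7:103415072-103419880 on the plus strand. *Usp17le* spanned chr7:104768049-104777470 (minus), *Usp17lb* chr7:104840257-104842603 (minus) and *Usp17la* chr7:104857009-104862667 (plus), and the pseudogene *Usp17le-ps* lay at chr7:104652252-104653208 (plus). The only annotated gene overlapping a member was *Gm25774*, a miRNA gene within *Usp17lc* on the same strand. The family was counted gene by gene from short reads, so the likeness of the members bears on every value that follows. The first 60 coding bases of each member, 5′ to 3′, are shown to make this likeness visible. They were read from the GENCODE M21 transcripts, and capitals mark bases identical in all 5 members.
Usp17la: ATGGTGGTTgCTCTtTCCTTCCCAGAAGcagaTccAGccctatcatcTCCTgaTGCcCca
Usp17lb: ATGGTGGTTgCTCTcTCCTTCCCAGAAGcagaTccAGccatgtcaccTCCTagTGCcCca
Usp17lc: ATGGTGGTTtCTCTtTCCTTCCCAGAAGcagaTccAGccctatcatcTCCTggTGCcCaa
Usp17ld: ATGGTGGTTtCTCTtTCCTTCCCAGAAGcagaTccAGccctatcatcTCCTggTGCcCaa
Usp17le: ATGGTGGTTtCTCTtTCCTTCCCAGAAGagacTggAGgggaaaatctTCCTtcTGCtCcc
The opening codons were shared over long stretches, *Usp17lc* and *Usp17ld* had the same 60 bases, and *Usp17le* departed from the others after the shared run that ends in AGAAG.

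RefSeq promoter entries, on GRCm38.p6, were matched for 4 of the 5 members and cover 250 bases before to 50 bases after each gene start. The 4 could be aligned over 214 columns with a base in each, of which 184 (86.0%) were identical. The following stretch of 159 bases holds 5 of the 6 identical runs of at least 12 bases and is shown because the 4 genes were transcribed in the same libraries. Sequences run 5′ to 3′ on the strand of the gene, and capitals mark those runs. Relative to the RefSeq start, the stretch covers bases -171 to -13 in *Usp17la* (chr7:104856845-104857003, plus), -156 to 2 in *Usp17lb* (chr7:104842581-104842739, minus), -213 to -55 in *Usp17lc* (chr7:103416483-103416641, plus) and -235 to -77 in *Usp17ld* (chr7:103252582-103252740, minus). For *Usp17lc* it lies inside the gene span given above, which is that of GENCODE, and for *Usp17lb* its last bases do. The annotations thus place the starts of both genes differently. Which starts were used in these cells was not tested.
Usp17la: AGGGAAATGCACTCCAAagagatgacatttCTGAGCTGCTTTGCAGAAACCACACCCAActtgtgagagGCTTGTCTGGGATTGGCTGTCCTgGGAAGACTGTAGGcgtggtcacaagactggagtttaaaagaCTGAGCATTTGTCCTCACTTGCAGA
Usp17lb: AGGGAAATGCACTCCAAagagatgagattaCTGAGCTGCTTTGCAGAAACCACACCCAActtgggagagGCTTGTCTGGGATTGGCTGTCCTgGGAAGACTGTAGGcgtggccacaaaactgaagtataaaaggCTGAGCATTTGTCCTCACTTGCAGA
Usp17lc: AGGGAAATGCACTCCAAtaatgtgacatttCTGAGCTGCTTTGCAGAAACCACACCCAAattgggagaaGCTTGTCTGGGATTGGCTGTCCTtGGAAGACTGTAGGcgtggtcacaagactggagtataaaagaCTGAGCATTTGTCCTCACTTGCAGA
Usp17ld: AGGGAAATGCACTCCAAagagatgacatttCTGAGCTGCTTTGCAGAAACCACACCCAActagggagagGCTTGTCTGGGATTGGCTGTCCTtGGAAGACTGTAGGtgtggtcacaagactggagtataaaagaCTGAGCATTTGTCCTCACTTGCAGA
The longest identical run was 29 bases. The letters TATAAA, searched on both strands of the 300 bases, occurred in *Usp17lb*, *Usp17lc* and *Usp17ld*, and in 13.62% of all 32851 promoters of that length. CACGTG, the E-box core, was in none of the 4 and in 7.15% of all promoters. TCCCGC, the E2F core, was in none of the 4 and in 19.98% of all promoters. These are matches of letters and not binding sites, and the absence of a match says only that these letters are not in this window.

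Coding sequences ran from 1404 bases in *Usp17lb* to 1635 bases in *Usp17lc* and *Usp17ld*, with 1578 in *Usp17la* and 1626 in *Usp17le*. Between pairs, 90.7% to 98.4% of aligned coding bases were identical. *Usp17lc* and *Usp17ld* were the closest pair, with 1609 of 1635 bases identical and an identical run of 812 bases in their transcripts. *Usp17lb* and *Usp17le* were the least alike of the 10 pairs. Of all 100-base windows in the transcript used, 46.6% in *Usp17lc* and 39.5% in *Usp17ld* were found unchanged in another gene, against 11.8% in *Usp17lb*, 10.2% in *Usp17le* and 3.8% in *Usp17la*. For *Usp17lc* and *Usp17ld* every such window lay in the other member of the pair. How reads that match several genes were counted is not given in the sources used here. The split of reads between *Usp17lc* and *Usp17ld* is therefore uncertain, while *Usp17la* had almost only windows of its own.

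**Figure D1:**
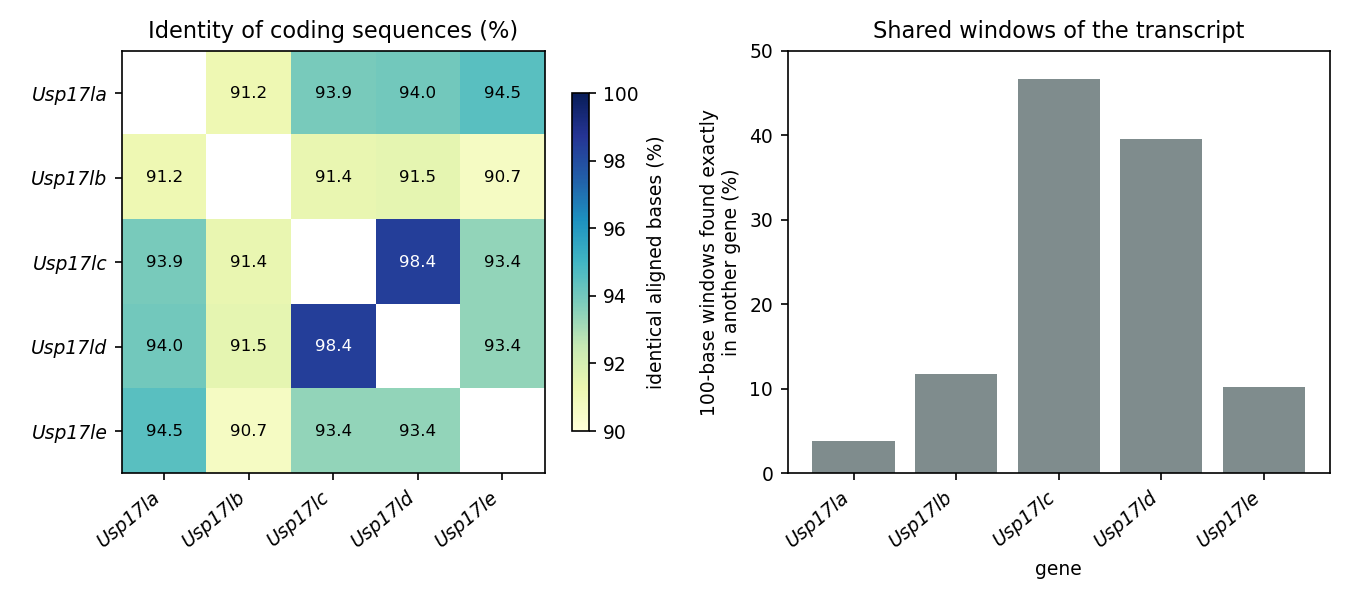
Left, percent of identical aligned coding bases for each pair of members (colour scale from 90 to 100%). Right, percent of 100-base windows of each member's transcript that occur exactly in another annotated gene. *Usp17lc* and *Usp17ld* stand out as a pair at 98.4% identity, with 46.6% and 39.5% shared windows, and *Usp17la* has 3.8%.

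*Zmym2* transcripts were measured first as a check of the labels. KO mESCs had 29.0 and 27.1 CPM (counts scaled by library size) of *Zmym2*, against 66.8 and 70.8 CPM in NT mESCs, and KO EBs had 32.4 and 30.9 CPM, against 92.8 and 93.1 CPM in NT EBs. The log2 fold change was -1.30 ± 0.10 (SE) in mESCs and -1.55 ± 0.07 in EBs (edgeR quasi-likelihood test, adjusted p = 3.07e-06 and 9.7e-08). In embryos, *Zmym2* ranged from 25.4 to 67.1 CPM (median 47.7) in KO and from 50.3 to 125.2 CPM (median 87.9) in WT, and the difference was not called (edgeR adjusted p = 0.226). With the name prefix shared by some embryos as a block, an alternative chosen after seeing the data, it was called, at a log2 fold change of -1.05 ± 0.14 (edgeR adjusted p = 0.0186). Over 6 alternatives the log2 fold change ran from -1.055 to -0.899, and 1 of the 6 changed the call. Some prefixes were held by a single genotype, and their embryos do not inform the difference in the block fit. A frameshift leaves part of the transcript, so these levels go with the labels without measuring protein. Libraries held between 32016880 and 50937945 counts in the lines and between 38142819 and 64057608 in embryos. All 9 pluripotency markers followed were above 0 RPKM in every line library, with 626.5 to 760.5 RPKM of *Pou5f1*. They were not kept at 1 level, and *Tfcp2l1* had only 0.271 to 0.372 RPKM in EBs. All 9 were called lower in EBs than in mESCs in NT lines and in KO lines by edgeR. Of all genes, 23.6% and 22.1% were called lower there.

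In mESCs, every member was transcribed in both KO lines and nearly silent in both NT lines. *Usp17le* had 519 and 277 counts in KO mESCs, against 8 and 3 counts in NT mESCs. *Usp17lb*, a member of the DUB-1 branch by its synonym, had 355 and 191 counts in KO mESCs, against 5 and 1 in NT mESCs. *Usp17lc*, listed as *Dub2*, had 260 and 121 counts in KO mESCs, against 1 and 4 in NT mESCs. The KO values of these 3 genes lay far above the NT values, with no overlap. *Usp17la*, listed as *Dub1*, had 200 and 122 counts in KO mESCs, against 0 and 1 in NT mESCs, where a count of 0 allows up to 0.0636 CPM in that library. *Usp17ld* had 73 and 27 counts in KO mESCs, against 2 and 2 in NT mESCs. *Usp17ld* thus had the fewest counts of the 5 in each KO library, yet its 2 KO values were also above both NT values. In CPM, both KO libraries lay above both NT libraries for 30.8% of all genes. Summed over the family, this came to 40.9 and 22.8 CPM in KO mESCs, against 0.337 and 0.302 CPM in NT mESCs. In these bulk libraries, more cells with the transcripts and more transcripts per cell cannot be told apart.

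Per length of transcript, *Usp17le* had 7.49 and 4.35 RPKM in KO mESCs, against 0.085 and 0.041 RPKM in NT mESCs. *Usp17lb* had 6.52 and 3.82 RPKM in KO mESCs, against 0.068 and 0.018 RPKM in NT mESCs. *Usp17lc* had 3.04 and 1.54 RPKM in KO mESCs, against 0.009 and 0.045 RPKM in NT mESCs. *Usp17la* had 2.16 and 1.43 RPKM in KO mESCs, against 0 and 0.01 RPKM in NT mESCs. *Usp17ld* had 1.05 and 0.424 RPKM in KO mESCs, against 0.021 and 0.028 RPKM in NT mESCs. By this measure too the KO and NT lines did not overlap for any of the 5. In CPM, both KO libraries lay above both NT libraries for 30.8% of all genes. Dividing counts scaled by library size by the RPKM of the same KO library gave a constant length for each member, such as 2656 to 2657 bases for *Usp17la* and 1987 to 1989 bases for *Usp17ld*. The RPKM are thus the same reads on another scale and no second measurement.

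**Figure D2:**
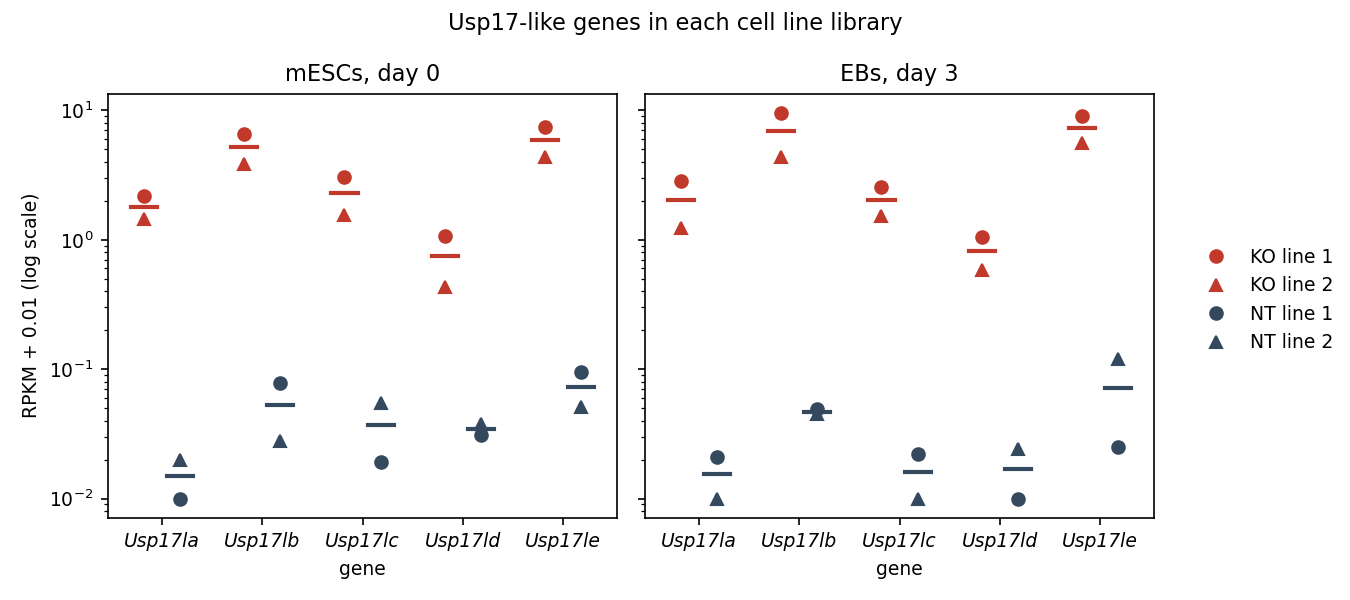
RPKM + 0.01 on a log axis for each of the 5 genes in mESCs (left) and EBs (right), with 1 point per library, KO in red to the left of NT in grey, circles for line 1, triangles for line 2 and bars for the mean of the 2 lines. In mESCs the KO points run from 0.424 to 7.49 RPKM and the NT points from 0 to 0.085 RPKM, and no gene's groups overlap at either stage. In CPM, both KO libraries lay above both NT libraries for 30.8% of all genes in mESCs and 26.2% in EBs.

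The difference between KO and NT mESCs was tested across all 20159 genes with edgeR. The log2 fold change was 6.47 ± 0.40 (SE) for *Usp17le* (adjusted p = 4.79e-07), 6.77 ± 0.47 for *Usp17lb* (adjusted p = 1.07e-06) and 6.48 ± 0.55 for *Usp17lc* (adjusted p = 5.07e-06). For *Usp17ld* it was 4.87 ± 0.68 (adjusted p = 0.00027). *Usp17la* had a single count in the NT lines, so its fold is given as a ratio of counts, 405-fold with a 95% counting interval of 72.2 to 16050 (edgeR adjusted p = 1.68e-06). The same ratio was 114.5 (52.3 to 313.4) for *Usp17lb*, 95.9 (40.7 to 297.0) for *Usp17lc*, 91.1 (50.6 to 183.1) for *Usp17le* and 31.5 (11.9 to 117.7) for *Usp17ld*. These intervals are exact, cover counting error only and overlap between neighbouring members, so no order of fold changes among the 5 is read from them. All 5 were called higher in KO mESCs (adjusted p under 0.05), where 10.3% of all genes tested were called higher and 8.94% lower, and all 5 were past 4-fold, where 3.52% of genes were. Both KO libraries lay above both NT libraries for all 5, as for 30.8% of all genes. The median log2 fold change of the 5 was 6.48, and that of all genes tested was 0.01. The deposited table holds no gene with fewer than 10 counts in total, and 4 of the 5 members had fewer than 10 counts in the NT mESCs together. Those 4 could enter the test only through the KO lines, so the count of 5 describes the family and adds no support beyond each gene's own values.

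In EBs at day 3 every member was again transcribed in both KO lines and nearly silent in both NT lines. *Usp17le* had 914 and 378 counts in KO EBs, against 1 and 8 counts in NT EBs. *Usp17lb* had 761 and 232 counts in KO EBs, against 2 and 2 in NT EBs. *Usp17la* had 384 and 112 counts in KO EBs, against 1 and 0 in NT EBs. In each of these genes the lower KO library was still far above the higher NT library. In CPM, both KO libraries lay above both NT libraries for 26.2% of all genes in EBs. *Usp17lc* had 318 and 127 counts in KO EBs, against 1 and 0 in NT EBs. *Usp17ld* had 105 and 39 counts in KO EBs, against 0 and 1 in NT EBs. For these 2 genes the NT lines had a single read between them. Counts of 0 allow up to 0.0814 CPM in the second NT EB library and 0.0904 CPM in the first. The family summed to 48.8 and 25.6 CPM in KO EBs, against 0.152 and 0.2995 CPM in NT EBs.

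On the RPKM scale, *Usp17lb* had 9.57 and 4.33 in KO EBs, against 0.039 and 0.035 in NT EBs. *Usp17le* had 9.03 and 5.55 RPKM in KO EBs, against 0.015 and 0.109 RPKM in NT EBs. The other 3 members had from 0.572 to 2.84 RPKM in KO EBs, against 0 to 0.014 RPKM in NT EBs. The pseudogene *Usp17le-ps* was listed at 0 RPKM in 7 of the 8 line libraries and at 0.082 RPKM in the first KO EB library. The log2 fold change in EBs was 7.50 ± 0.55 (SE) for *Usp17lb* (edgeR adjusted p = 8.03e-06) and 6.78 ± 0.41 for *Usp17le* (edgeR adjusted p = 1.56e-06). For the 3 genes with 1 NT count, the ratio of counts was 404-fold for *Usp17la* (72.2 to 15990, edgeR adjusted p = 3.01e-05), 362-fold for *Usp17lc* (64.7 to 14340, adjusted p = 8.03e-06) and 117.3-fold for *Usp17ld* (20.7 to 4663, adjusted p = 0.00022). All 5 were called higher, where 4.62% of all 20142 genes were called higher and 2.77% lower, and all 5 were past 4-fold, where 1.54% were. Both KO libraries lay above both NT libraries for all 5, as for 26.2% of all genes. Their median log2 fold change was 7.49, or 6.92 with the 3 genes set against a floor of 3 NT counts over the group, and that of all genes was 0.01. All 5 had fewer than 10 counts in the NT EBs together, so here too they entered the table only through the KO lines.

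**Figure D3:**
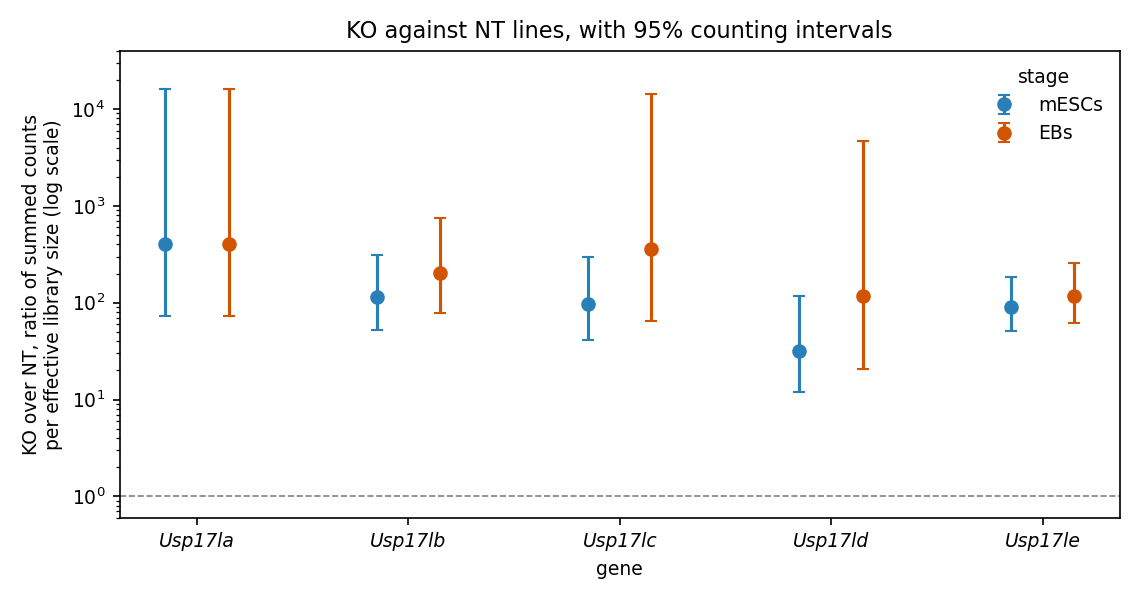
Ratio of summed counts in KO over NT lines, per effective library size, on a log axis for each gene in mESCs (blue) and EBs (orange), with exact 95% counting intervals and a dashed line at 1. Ratios run from 31.5 for *Usp17ld* in mESCs to 405 for *Usp17la* in mESCs, and the widest intervals belong to genes with a single NT count.

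Within KO cells the members differed in level. Averaged over the 2 lines, *Usp17le* had 5.92 ± 2.22 RPKM (SD, n = 2) and *Usp17lb* 5.17 ± 1.91 in mESCs, followed by *Usp17lc* at 2.29 ± 1.06, *Usp17la* at 1.80 ± 0.51 and *Usp17ld* at 0.739 ± 0.446. In EBs the means were 7.29 ± 2.46 for *Usp17le*, 6.95 ± 3.70 for *Usp17lb*, 2.03 ± 1.14 for *Usp17la*, 2.03 ± 0.73 for *Usp17lc* and 0.805 ± 0.329 for *Usp17ld*. With 2 lines these orders were not tested. The ranges of mean ± SD of neighbours overlapped, except between *Usp17la* and *Usp17ld* in mESCs and, in EBs, between *Usp17lb* and *Usp17la* and between *Usp17lc* and *Usp17ld*, and *Usp17lb* and *Usp17le* changed places in the first KO EB library. The share of each gene in the counts of the family differed between KO libraries by several percentage points at most, in some cases beyond counting error. *Usp17le* took 36.9% and 37.5% in KO mESCs and 36.8% and 42.6% in KO EBs. *Usp17lb* took 25.2% and 25.9% in KO mESCs and 30.7% and 26.1% in KO EBs. *Usp17ld* took the smallest share, between 3.66% and 5.19%. *Usp17lc* took 18.5% and 16.4% in KO mESCs and 12.8% and 14.3% in KO EBs, so that the first KO mESC and KO EB libraries differed beyond their Wilson intervals, and its split from *Usp17ld* rests on the reads that tell the pair apart. *Usp17la* took between 12.6% and 16.5%. Wilson 95% intervals of these shares are a few percentage points wide, such as 34.4% to 39.4% for *Usp17le* in the first KO mESC library. Across the 8 line libraries, log2(RPKM + 0.1) correlated between members at 0.987 to 0.997 (Pearson), a figure set by the gap between 4 KO and 4 NT libraries and given as a description.

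**Figure D4:**
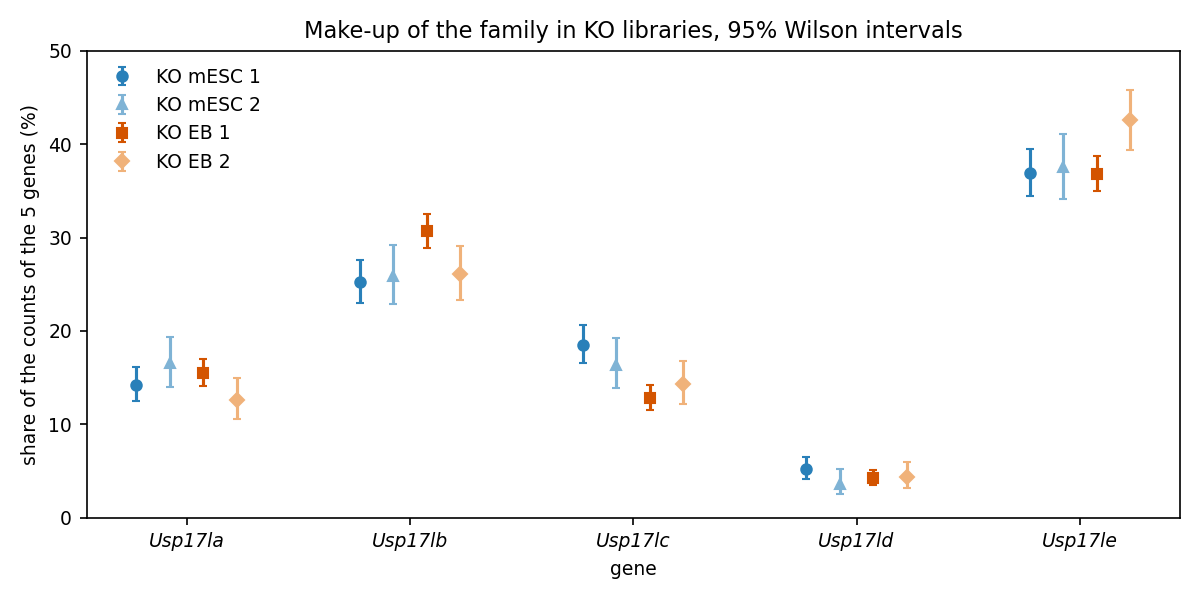
Share of each gene in the counts of the 5 genes (%) in the KO libraries, with Wilson 95% intervals and 1 marker shape per library. *Usp17le* holds 36.8 to 42.6%, *Usp17lb* 25.2 to 30.7% and *Usp17ld* 3.66 to 5.19%, and the order of *Usp17le*, *Usp17lb* and *Usp17ld* is the same in all 4 libraries.

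The 2 KO lines were not alike. In mESCs, KO line 1 exceeded KO line 2 by a ratio of 1.54 (95% counting interval 1.23 to 1.95) for *Usp17la*, 1.75 (1.46 to 2.10) for *Usp17lb*, 2.02 (1.62 to 2.53) for *Usp17lc*, 2.55 (1.62 to 4.12) for *Usp17ld* and 1.76 (1.52 to 2.05) for *Usp17le*. In EBs, the ratio was 2.33 (1.89 to 2.91) for *Usp17la* and 2.23 (1.93 to 2.60) for *Usp17lb*. It was 1.71 (1.38 to 2.11) for *Usp17lc*, 1.83 (1.26 to 2.72) for *Usp17ld* and 1.65 (1.46 to 1.86) for *Usp17le*. Line 1 was the higher clone for every member at both stages, and none of the 10 intervals reached 1. The CPM of the family were 1.80 times as high in line 1 as in line 2 in mESCs, and 1.90 times in EBs. With 1 library per clone and stage, this compares those libraries.

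The change with differentiation was small beside the change with genotype. In KO lines, EBs against mESCs gave a log2 fold change of 0.37 ± 0.33 (SE) for *Usp17lb*, 0.24 ± 0.29 for *Usp17le*, 0.13 ± 0.36 for *Usp17la*, 0.07 ± 0.44 for *Usp17ld* and -0.23 ± 0.35 for *Usp17lc* (edgeR). No member was called (adjusted p from 0.399 to 0.914), where 23.1% of the 18926 genes in both tables were called higher in KO EBs and 22.1% lower. None of the 5 had an unadjusted p under 0.05 with edgeR, and DESeq2 also called none. The median of the 5 was 0.13, against -0.01 over all genes. Without the second KO EB library, *Usp17lb* was called higher in EBs, at a log2 fold change of 0.83 (edgeR adjusted p = 0.0464). *Usp17la* had an EB over mESC ratio of 1.26 (1.06 to 1.50) in line 1 and 0.823 (0.631 to 1.07) in line 2. For *Usp17lb* the ratio was 1.40 (1.24 to 1.60) in line 1 and 1.09 (0.896 to 1.33) in line 2. *Usp17le* was higher in the EBs of both lines, at 1.15 (1.03 to 1.29) and 1.22 (1.05 to 1.43), with intervals that lie above 1 but cover counting error only. *Usp17lc* was at 0.80 (0.677 to 0.946) and 0.941 (0.728 to 1.22), and *Usp17ld* at 0.941 (0.691 to 1.29) and 1.296 (0.773 to 2.20). For *Usp17la* and *Usp17ld* the ratios of the lines lay on different sides of 1, with at least 1 interval reaching 1. The edgeR fit above did not pair the libraries of a clone. With the line as a block, *Usp17lb* was at a log2 fold change of 0.32 ± 0.17 (SE) and *Usp17le* at 0.245 ± 0.158, and no member was called.

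In NT lines, the 5 genes had 16 and 11 counts together in the 2 mESC libraries and 5 and 11 in the 2 EB libraries. No member was called between stages (edgeR adjusted p from 0.401 to 0.969), where 23.0% of genes were called higher in NT EBs and 23.6% lower, and none had an unadjusted p under 0.05. At these counts a change of several fold could not have been seen. For *Usp17le*, with 9 counts in NT EBs and 11 in NT mESCs, the EB over mESC ratio was 0.952 (95% counting interval 0.349 to 2.53). The stage by genotype interaction, which asks whether the difference between KO and NT cells itself changed from mESCs to EBs, was called for none of the 5 (edgeR adjusted p from 0.647 to 0.998, and none under 0.05 unadjusted). Over all genes, 3.07% were called in the positive and 2.18% in the negative direction of the interaction, or 1299 and 1026 genes in place of 581 and 412 with the line as a block.

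**Figure D5:**
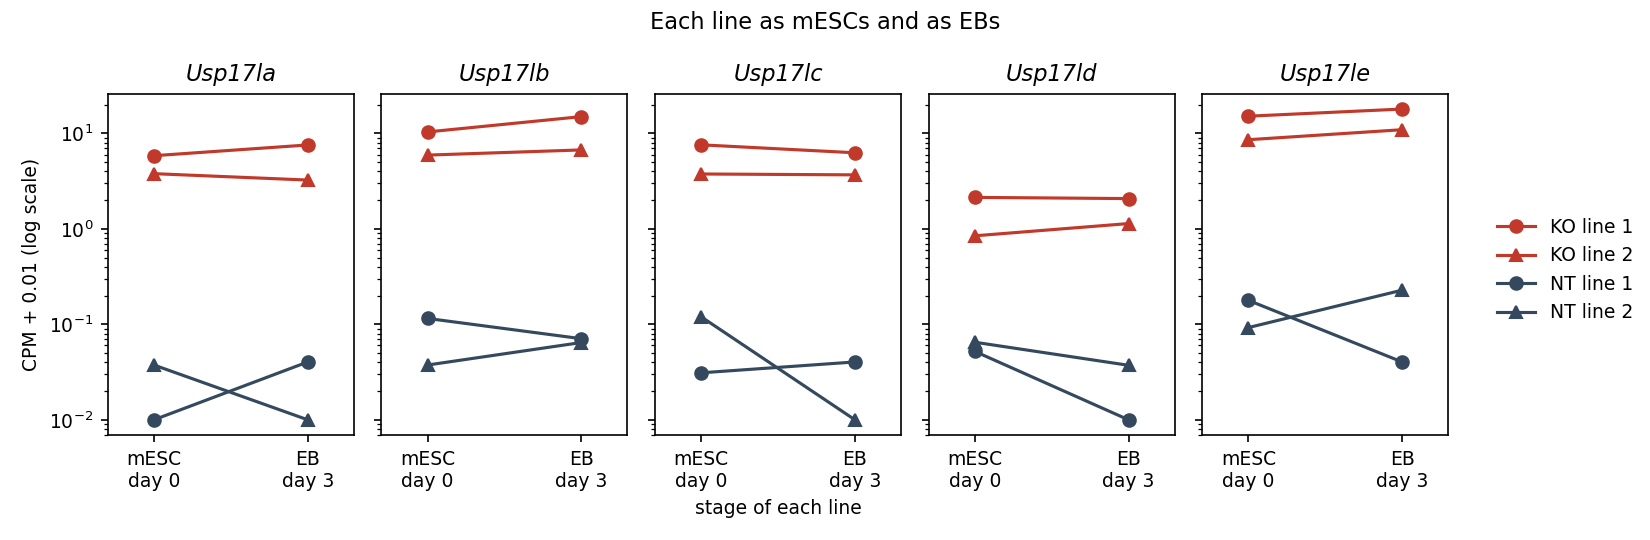
CPM + 0.01 on a log axis for each gene, with 1 line per clone joining its mESC library (day 0) and its EB library (day 3), KO in red and NT in grey, circles for line 1 and triangles for line 2. KO line 1 lies above KO line 2 in every panel at both stages, and the red lines are nearly level.

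Embryos showed no comparable transcription. *Usp17la*, *Usp17lb*, *Usp17lc* and *Usp17ld* were listed at 0 RPKM in all 12 embryos, 6 KO and 6 WT, and so was *Usp17le-ps*. *Usp17le* was at 0.011 RPKM in 1 KO embryo and at 0.025 RPKM in 1 WT embryo, and at 0 in the other 10. The difference of mean log2(RPKM + 0.1) for *Usp17le*, KO minus WT, was -0.03 (two-sided exact permutation test, p = 1.0). With 2 values above 0 that test could not go below p = 0.455 (exact) however they fell, so it says nothing of a difference. *Usp26*, an X-linked ubiquitin-specific protease known for its expression in testis, is one of the 5 genes whose pattern in the lines was closest to the family. It had from 6.17 to 17.9 RPKM (median 9.12) in KO embryos, against 0 to 0.958 RPKM (median 0.021) in WT embryos, with a log2 fold change of 5.70 ± 1.17 (SE, edgeR adjusted p = 0.0496, where 0.51% of genes were called higher). The call was lost, at an adjusted p of 0.0512 (edgeR), with the name prefix that some embryos share as a block, an alternative chosen after seeing the data. Of 39 genes listed for the 2-cell-like state, followed in the lines below, only 3 were among the genes tested in embryos. None of the 3 was called higher or lower in KO embryos by edgeR, with a median log2 fold change of 0.08. Whether the family differs in its response between lines and embryos was not tested, since strain and stage differ as well. The KO lines were made with the guide RNA of the mouse allele, and their own alleles are not given in the sources used here.

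The 5 genes closest to the summed RPKM of the family over the 8 line libraries, among 13747 genes with a mean of at least 0.5 RPKM, were *Gm6489*, *Gm18983*, *Usp26*, *Zscan4c* and *Zscan4-ps3*, each with a Pearson correlation of log2(RPKM + 0.1) of 0.995. This likeness is mostly the step between KO and NT libraries. *Zscan4c*, a zinc finger gene of the 2-cell embryo, had 9.30 and 3.13 RPKM in KO mESCs, against 0.019 and 0.048 RPKM in NT mESCs. It had 7.44 and 3.52 RPKM in KO EBs, against 0 and 0.012 RPKM in NT EBs. As for the Usp17-like genes, KO line 1 was above KO line 2 at both stages.

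Most tested genes of a list for the 2-cell-like state were called higher in KO lines. Of 39 listed genes, 33 were tested in mESCs, and 31 were called higher and none lower in KO cells, beside 10.3% and 8.94% of all genes. In EBs, 28 of 31 were called higher and none lower in KO cells, beside 4.62% and 2.77% of all genes. Together the NT libraries held fewer than 10 counts of 32 of the 33 and of 30 of the 31, which could enter the tables only through the KO lines, so these counts describe the tested genes and support nothing further. The median log2 fold change of the list was 6.82 in mESCs and 7.43 in EBs, or 5.82 and 4.82 with genes of at most 3 NT counts set against a floor of 3. The list summed to 107.2 and 45.0 RPKM in KO mESCs, against 1.49 and 0.981 RPKM in NT mESCs, and to 71.0 and 33.6 RPKM in KO EBs, against 0.822 and 0.94 RPKM in NT EBs. Of its 37 genes with RPKM, 2 and 3 were at 0 in the KO mESC libraries, against 18 and 20 in NT mESCs. *Duxf3*, a gene of the DUX family that drives the 2-cell program, had 39 and 33 counts in KO mESCs, against 3 and 2 in NT mESCs (log2 fold change 4.11 ± 0.59, edgeR adjusted p = 0.000341). It had 55 and 21 counts in KO EBs, against 0 and 4 in NT EBs (3.84 ± 0.76, edgeR adjusted p = 0.00891, or 0.0598 without KO EB replicate 1). *Zscan4d* had 844 and 219 counts in KO mESCs, against 4 and 5 in NT mESCs. *Zscan4a* and *Zscan4e* were called higher at both stages as well. The part of 2-cell-like cells in the values of the Usp17-like genes was not tested. In KO lines, 8 of 30 list genes were called lower in EBs than in mESCs and none higher, beside 22.1% and 23.1% of all genes.

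Markers of other cell types were also followed. Among all genes tested, 10.3% were called higher and 8.94% lower in KO mESCs, and 4.62% higher and 2.77% lower in KO EBs. Of 9 pluripotency markers, 5 were called lower and 1 higher in KO mESCs, of 8 markers of primed cells and germ layers 5 were called higher and none lower, and of 5 primitive endoderm markers 1 was called lower and none higher. In KO EBs, 2 pluripotency markers were called higher and none lower, 1 marker of primed cells and germ layers lower and none higher, and 1 primitive endoderm marker higher and none lower. Fibroblast markers summed to 2.89 and 4.27 RPKM in KO mESCs, against 1.36 and 0.968 RPKM in NT mESCs, and 1 of 3 tested was called higher in mESCs and none in EBs by edgeR, where none had an unadjusted p under 0.05. Of 4 tested trophoblast markers none was called at either stage by edgeR, with 2 higher and 1 lower in mESCs, and 1 higher and 1 lower in EBs, at an unadjusted p under 0.05. Of 5 germ cell markers, 1 was called higher and 1 lower in KO mESCs, and 3 higher and none lower in KO EBs. Their part in the levels of the family was not tested.

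Most of the remaining USP genes were not called. Of 50 tested, 6 were called higher and 7 lower in KO mESCs, beside 10.3% and 8.94% of all genes, with a median log2 fold change of -0.10, and 3 were called higher and none lower in KO EBs, with a median of -0.01. *Usp36* and *Usp42*, close relatives by catalytic domain, were abundant and not called. *Usp36* had 14.2 and 14.4 RPKM in KO mESCs, against 14.0 and 11.7 RPKM in NT mESCs (log2 fold change 0.15 ± 0.09, edgeR adjusted p = 0.303). *Usp42* had 5.03 and 4.75 RPKM in KO mESCs, against 5.44 and 4.79 RPKM in NT mESCs (-0.06 ± 0.12, edgeR adjusted p = 0.779). Per length, *Usp17le* in KO mESCs was thus near the level of *Usp42* and below that of *Usp36*. *Usp26* had 36.2 and 26.2 CPM in KO mESCs, against 0.463 and 0.412 CPM in NT mESCs (log2 fold change 6.14 ± 0.24, edgeR adjusted p = 2.74e-08). It had 39.0 and 28.4 CPM in KO EBs, against 0.0303 and 0.0545 CPM in NT EBs. *Usp9y*, a Y-linked USP gene, had 5 and 8 counts in KO mESCs, against 0 and 0 in NT mESCs. *Usp29*, an imprinted USP gene, was called higher at both stages. It had 3.70 and 3.74 CPM in KO mESCs, against 0.737 and 0.604 CPM in NT mESCs (log2 fold change 2.46 ± 0.30, edgeR adjusted p = 9.28e-05). In EBs it had 4.44 and 3.12 CPM in KO EBs, against 1.61 and 1.82 CPM in NT EBs (1.15 ± 0.24, edgeR adjusted p = 0.0131, or 0.103 without KO EB replicate 1). *Usp46* and *Usp12*, relatives that act with WD-repeat cofactors, were called lower in KO mESCs, at -1.02 ± 0.17 (edgeR adjusted p = 0.0011) and -0.60 ± 0.11 (adjusted p = 0.00154).

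Proteins reported as partners or substrates of USP17 or DUB enzymes, mostly from human cells, were followed as a list of 9 genes. In mESCs 1 of 8 tested was called higher and none lower in KO cells, beside 10.3% and 8.94% of all genes. In EBs 1 of 9 was called lower and none higher, beside 2.77% and 4.62% of all genes. *Ddx58*, which encodes the RNA sensor RIG-I, had 46.9 and 44.4 CPM in KO mESCs, against 22.5 and 19.5 CPM in NT mESCs (log2 fold change 1.12 ± 0.12, edgeR adjusted p = 2.91e-05), and was not called in EBs (adjusted p = 0.0693). *Has2*, a hyaluronan synthase, had 23.1 and 22.5 CPM in KO EBs, against 30.2 and 33.9 CPM in NT EBs (-0.49 ± 0.09, edgeR adjusted p = 0.00517). *Suds3*, a subunit of the SIN3 histone deacetylase complex, was at 0.04 ± 0.08 in mESCs and 0.03 ± 0.05 in EBs and was not called. The median of the list was 0.28 in mESCs and 0.03 in EBs.

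The genes beside the members were mostly without reads. Of 38 distinct neighbours, up to 5 on each side of each run of members and mostly olfactory receptor genes, 31 were at 0 RPKM in all 8 line libraries and 4 reached 0.1 RPKM in any. Only 2 had enough counts to be tested in mESCs and 3 in EBs. *Gm25774*, the miRNA gene inside *Usp17lc*, had 9 and 4 counts in KO mESCs, against 0 and 0 in NT mESCs (edgeR adjusted p = 0.0303, but 0.0902 and 0.0812 without NT mESC replicate 1 or replicate 2), and 9 and 1 counts in KO EBs, against 0 and 1 in NT EBs. It lies on the strand of *Usp17lc*, so reads of the host gene and of the miRNA gene cannot be told apart. *Gm25171*, a miRNA gene next to *Usp17ld* chosen after its values were seen, had 0.948 and 0.258 RPKM in KO mESCs and 0.973 and 0.482 RPKM in KO EBs, against 0 in all 4 NT libraries. It was in neither count table and was not tested. No other neighbour was called at either stage by edgeR, and none of those tested in EBs had an unadjusted p under 0.05.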

How the data were processed

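RNA was sequenced from 8 mESC and EB libraries and 12 embryos. Reads were processed by the authors with Trimmomatic (0.34), STAR (2.7.8a, mm10), Picard (2.9.0), HTSeq-count and StringTie (1.3.5). The HTSeq-count version, annotation, strand setting and treatment of reads with several matches are not given in the sources used here. The deposited counts are the authors' raw reads per gene, without genes under 10 counts in total (13 in embryos). The deposited score beside each count is the count divided by 1 factor per library and was used only as a check. The paper names StringTie for its RPKM. For the members in KO line libraries, the deposited RPKM matched the counts scaled by library size over a constant length per gene.

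Counts were tested in R (4.3.3) with the two-sided quasi-likelihood test of edgeR (4.0.16), TMM scaling and Benjamini-Hochberg adjustment over all genes with at least 10 counts summed, and called at an adjusted p under 0.05. KO and NT were compared within each stage, and stages and the interaction in 1 fit of the 8 line libraries. mESC and EB libraries of the same number are the same clone, and their deviations from the group means correlated at 0.239 (NT) and 0.457 (KO). CPM are TMM-scaled. Counting intervals of ratios (exact, 95%), shares (Wilson) and counts of 0 (up to 3 counts) cover counting error only. RPKM of the lines were not tested, since 2 against 2 allows no exact p below 0.333. The test was checked on simulated counts. The changed genes there had far more counts in the unchanged group than the members had in NT lines, so that check does not cover such low counts. Alternatives were RLE scaling, DESeq2 (1.42.0), other filters, all libraries in 1 fit, a replicate block, sex or the shared name prefix in embryos and leaving out each line library.

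Members, lists and tests were chosen with earlier results of these data known. Named besides the members were *Zmym2*, *Duxf3* and the 4 other 2-cell-like genes highest in mean CPM, *Usp36*, *Usp42*, the called USP genes of largest change (up to 2 per direction and comparison), called partners and neighbours, and the 5 genes most like the family. Coding sequences came from GENCODE M21 and promoters from RefSeq (GRCm38.p6), aligned with MAFFT (7.526).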

Additional observations from a re-analysis of the deposited data

Results flagged for a closer look

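In a group of 6 embryos, 1 embryo was set apart from the other 5 in each genotype for *Usp17le*, at 0.011 RPKM in a KO embryo and 0.025 RPKM in a WT embryo, with 0 in the others. Chance flags about 1 in 20 groups in this way, and any value above 0 stands apart when the rest are at 0.

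For 3 genes set beside the family, the difference between KO and NT cells itself differed between EBs and mESCs (stage by genotype interaction, edgeR). *Usp26* had a log2 interaction of 3.37 ± 0.76 (SE, adjusted p = 0.0237), with a higher KO level at both stages and a lower NT level in EBs (1 and 2 counts) than in mESCs (22 and 15 counts). *Usp46* had 0.91 ± 0.23 (adjusted p = 0.0425) and *Has2* -1.15 ± 0.22 (adjusted p = 0.00998). The *Usp26* call was lost without any 1 of the 4 NT libraries (adjusted p from 0.0713 to 0.12), the *Usp46* call without NT mESC replicate 2, KO mESC replicate 1 or any 1 of the 4 EB libraries (0.0644 to 0.159) and the *Has2* call without NT EB replicate 2 (0.0537). No Usp17-like gene was called in this way. Their log2 interactions ran from -0.04 to 1.66, with SEs of 1.05 to 1.72. At so few NT counts the test could not tell a change of several fold from none.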

How the results depend on the processing

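All 5 members were called higher in KO mESCs and in KO EBs under every alternative run, which were RLE size factors, DESeq2, no filter, filterByExpr, all 8 libraries in 1 fit, the replicate block and each library left out. The run with no filter equals the main fit, since no deposited gene has under 10 counts, so it adds nothing. With a library left out, 1 genotype has a single library, which is assumed to vary like the pair of the other genotype. Between stages and in the interaction no member was called with RLE, DESeq2, filterByExpr, genes of either table, the line as a replicate block or any library left out, except *Usp17lb* without KO EB replicate 2 (0 to 1 members called higher in EBs over the libraries left out). Leaving out single libraries moved the sign of uncalled stage values. Between stages in NT lines, the log2 fold change ranged over -2.27 to 2.42 for *Usp17la*, -0.89 to 0.94 for *Usp17lb* and -2.04 to 0.66 for *Usp17le*. In KO lines it ranged over -0.62 to 0.60 for *Usp17la*, -0.33 to 0.83 for *Usp17lb*, -0.68 to 0.36 for *Usp17lc*, -0.45 to 0.90 for *Usp17ld* and -0.17 to 0.71 for *Usp17le*. For *Usp42*, not called between KO and NT mESCs, it ranged over -0.139 to 0.029, and for *Suds3*, not called, over -0.018 to 0.106 in mESCs and -0.009 to 0.072 in EBs. The interaction ranged over -2.29 to 2.40 for *Usp17la*, -0.56 to 1.26 for *Usp17lb* and -0.42 to 2.28 for *Usp17le*. For all genes, the numbers called in mESCs ranged from 1330 to 1996 higher (2068 with all libraries) and from 1021 to 1862 lower (1803), with the lowest without NT mESC replicate 2. For the interaction they ranged from 216 to 719 higher (581) and from 174 to 502 lower (412), with all counts down by over 1.5 times without NT mESC replicate 2 or any 1 of the 4 EB libraries. KO and NT samples of the same number share only a number, with deviations correlated at -0.08 in mESCs and -0.11 in EBs. With the replicate block 841 genes were called lower in EBs in place of 558, and crossing the numbers, an alternative chosen after seeing the data, gave 946, and neither changed the call of a member. All 8 libraries in 1 fit gave 291. The line as a block gave 1299 and 1026 interaction calls and changed no call of a member. In embryos, where no member was tested by counts, DESeq2 called 335 genes higher and 37 lower in place of 116 and 3, the sample number as a block gave 49 and 0, and the name prefix that embryos share as a block, chosen after seeing the data, gave 62 and 9. The causes of these shifts in numbers were not tested. The labels do not say what the prefix marks. A filter of 0.1 RPKM on embryo means left no member, so it gave no value. In NT lines, depth limits the folds to within the counting intervals given.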

Other observations

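*Usp9y* led to other Y-linked genes, which were chosen after its values were seen. *Eif2s3y*, a translation initiation factor gene of the Y chromosome, had 116 and 182 counts in KO mESCs, against 5 and 0 in NT mESCs, and 73 and 221 counts in KO EBs, against 0 and 0 in NT EBs. *Ddx3y*, an RNA helicase gene, had 32 and 13 counts in KO mESCs, against 1 and 0 in NT mESCs, and 25 and 15 counts in KO EBs, against 0 and 0 in NT EBs. Scaled to library size, *Eif2s3y* was at 1.43 to 6.37 CPM in the 4 KO line libraries, against 0 to 0.105 CPM in the 4 NT line libraries, and at 19.5 to 48.8 CPM in the 6 male embryos. *Uty*, a histone demethylase gene, had 8 and 3 counts in KO mESCs, against 0 and 0 in NT mESCs, and 10 and 1 counts in KO EBs, against 0 and 0 in NT EBs. KO line 2 had the more counts of *Eif2s3y* at both stages, and KO line 1 of *Ddx3y* and *Uty*. KO and NT clones thus differed in the level of Y-linked transcripts as well as in *Zmym2*, and the part of this in the levels of the Usp17-like genes was not tested.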
